A study of Mus musculus with 6 samples.

Results

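The genes of the translation initiation factors (eIFs) and elongation factors (eEFs) number 60 here: all protein-coding rows, of 28660 loci in the table, whose symbol starts with Eif1 to Eif6, Eef1 or Eef2. They were chosen by name and RNA type, with no use of their values. Another 4 rows match the names but are 3 pseudogenes and a long intergenic RNA, and are left aside. The only cells used were HL-1, an immortal line from mouse atrial muscle kept in Claycomb medium with serum, glutamine and norepinephrine, and the labels give no treatment or genotype contrast. Their nuclei were opened and divided into chromatin pellet and soluble nuclear extracts, with 3 libraries per fraction from 3 biological replicates, and synthetic ERCC spike-in RNAs were put into each fraction ahead of RNA extraction. The table holds 1 pooled FPKM value per fraction, that is, fragments scaled to transcript length and library depth. No spread between replicates, p-value or counting interval can therefore be given for any gene, and the depth is unknown. In such bulk RNA, fewer cells with a message and less RNA per cell cannot be told apart. The comparison asks which RNAs stay with chromatin and which are found in the soluble nucleus.

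Protein synthesis begins when initiation factors bring the initiator transfer RNA and the small ribosomal subunit to the 5′ end of a messenger RNA, and it proceeds through elongation factors that deliver aminoacyl transfer RNAs and move the ribosome along. eIF2 carries the initiator transfer RNA as a GTP complex, eIF2B recharges eIF2 with GTP, eIF3 scaffolds the initiation complex, and the eIF4 proteins bind the cap and unwind the leader. Their messages are read in the cytoplasm, so what a nucleus holds of them may be newly made RNA on its way out, or RNA that stays. Whether the nuclear extracts also held RNA carried over from the cytoplasm was not tested.

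The fold used throughout is the log2 of pellet FPKM times 3.37 over soluble FPKM, where 3.37 is the factor that brings the spike-ins of the 2 fractions together. Reading it as RNA amount assumes equal spike-in amounts in both fractions. The only error the table allows is the scatter of the spike-ins around that factor: among the 47 whose mean reached 0.5 FPKM, the log2 deviations had an SD of 0.12 and ran from -0.28 to 0.23. This covers library making and sequencing, not the cultures or the fractionation. Loci whose mean over both fractions reached 0.5 FPKM are called tested, in the sense of measured well enough to be compared, and all 60 genes did. Higher and lower stand for a difference of at least 2-fold between pellet and soluble fraction. Without the factor every log2 fold is lower by 1.75, called the FPKM scale below. Of the 9 cardiomyocyte markers checked, 8 had a row and all 8 were tested, among them Myh6 at 124.4 soluble FPKM, although the atrial peptide gene Nppa had only 1.63. Fibroblast markers summed to 6.03, endothelial ones to 5.87 and immune ones to 0.722 soluble FPKM, while smooth muscle markers summed to 1541, nearly all of it Acta2 (1539).

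As a group the factor genes lay towards the soluble nucleus, with a small set that went the other way. Of the 60, 16 were lower in the pellet (26.7%), 6 were higher (10.0%) and 38 lay within 2-fold. Over all 13917 tested loci, 10.5% were lower and 31.9% higher, and over the 11397 protein-coding ones 10.6% and 24%. At a limit of 3-fold the balance of counts turned, with 4 of the 60 higher and 1 lower, where 19.8% and 3.26% of all tested loci passed it in those directions. The median log2 fold of the factor genes was -0.55 (interquartile range -1.01 to 0.09), against 0.41 for all tested loci and 0.26 for protein-coding ones. Fold values fell inside the spike-in range for 12 genes, below it for 36 and above it for 12. Without the factor, 52 of the 60 were lower and 1 was higher (median -2.30), where 61.2% of all tested loci were lower and 9.66% higher (68.2% and 2.25% of the protein-coding ones). Of the 17 genes with a positive fold, 14 then had a negative one. The group thus sat on the soluble side of the table's median on both scales, since the shift is common to all loci. The factor genes were also more abundant (median 51.6 soluble FPKM, against 12.9 for tested protein-coding loci). Among loci with at least 10 soluble FPKM, the gap to protein-coding loci kept its direction but was smaller. There, with the factor, the median log2 fold was -0.64 in 53 factor genes and -0.03 in 6557 protein-coding loci. The lower shares were 30.2% and 15.3%, the higher shares 5.66% and 14.1%. Level was not fully matched, with median soluble FPKM at 70.0 and 26.4.

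Levels differed widely between the genes. In the soluble fraction Eef1b2 led with 633.9 FPKM, followed by Eif4g2 (591.2), Eef2 (507.3), Eif5a (352.4) and Eif6 (203.5). In the pellet Eif4g2 led with 238.6 FPKM, ahead of Eif4a2 (97.6), Eef2 (75.2), Eef1b2 (70.9) and Eif4g1 (45.1). Eif4a2 was only 31st in the soluble fraction, the largest change of place among the top 5 of either fraction. Eif4ebp3 was lowest in the soluble fraction at 0.575 FPKM, and Eif3j2 lowest in the pellet at 1.03 FPKM.

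**Figure D1:**
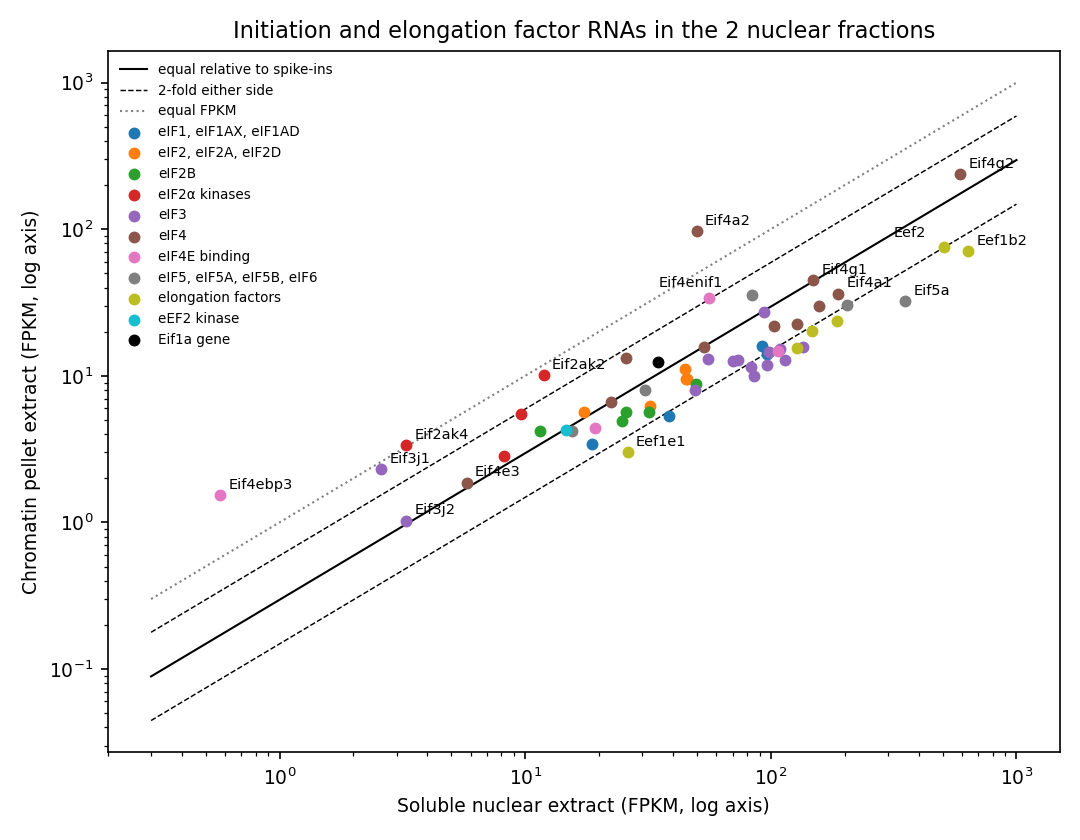
Soluble FPKM (x, log axis) against pellet FPKM (y, log axis) for the 60 factor genes, 1 point per gene, coloured by role. The solid line marks equality relative to the spike-ins, the dashed lines 2-fold either side and the dotted line equal FPKM. Eif4a2, Eif4ebp3 and Eif2ak4 lie above the dotted line, and Eif5a is farthest below the solid one.

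The elongation factors were the most uniform set. All 6 listed had negative folds, from -1.41 to -0.999, and 5 were lower in the pellet, with a median of -1.25. Among all tested protein-coding loci 10.6% were lower, with a median of 0.26. Eef1b2, the exchange factor subunit that reloads eEF1A with GTP, had 633.9 soluble and 70.9 pellet FPKM, a log2 fold of -1.41. Its partners in the same complex were close: Eef1d, the other exchange subunit, had -1.22 (185.9 and 23.7 FPKM) and Eef1g, the gamma subunit, had -1.11 (146.9 and 20.2 FPKM). These messages stood at different levels but kept nearly the same balance between fractions. Eef1a2, the muscle and neuron form of the factor that carries aminoacyl transfer RNA, had 127.5 soluble and 15.6 pellet FPKM, a log2 fold of -1.28. Eef1e1, which encodes a protein of the multisynthetase complex, had 26.1 and 3.03 FPKM, a log2 fold of -1.36. Eef2, the translocase, had 507.3 and 75.2 FPKM and stood just within 2-fold at -0.999. Eef2k, the kinase that inhibits eEF2, was balanced at -0.02 (14.7 and 4.29 FPKM). Eef1a1, the widely expressed form of eEF1A, was not analysed here.

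Elongation factor messages are known for a pyrimidine-rich 5′ end (the TOP motif) that places them, with ribosomal protein messages, under mTOR control in the cytoplasm. The 50 bases on either side of each annotated start were searched on the transcript strand for CTCTT or CTTTT, short stretches of that kind, in RefSeq on GRCm38.p6. Starts were matched for 47 of the 60 genes, and 11 (23.4%) held a match, against 24.9% of 27025 genes with a start and 19.9% of the tested protein-coding ones. On the opposite strand the shares were 12.8%, 25.1% and 18.1%. Ribosomal protein genes held it in 37 of 59 (62.7%). A match was present in 3 of the 11 lower genes with a start, 8 of the 31 within 2-fold and 0 of the 5 higher. The factor genes thus held these letters about as often as genes in general. The search cannot tell which messages carry a TOP motif, because it does not ask whether the RNA itself begins with such a stretch.

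Windows of 30 bases show the match in 3 genes with negative folds, 2 of elongation and 1 of the eIF3 complex, with its letters in capitals. The other two elongation factors with a matched start, Eef1b2 and Eef1e1, held none, and of the 11 genes with a match Eif2ak1 had a positive fold. The windows are written 5′ to 3′ on the transcript strand.
Eef2 (chr10:81176634-81176663, plus strand): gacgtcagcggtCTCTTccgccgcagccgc
Eef1a2 (chr2:181157027-181157056, minus strand): cgctgcaccgccCTTTTgcctgtttttctc
Eif3f (chr7:108934384-108934413, plus strand): ctccaactcacgCTCTTctgttctaggctc
The match begins at base 16 after the annotated start in Eef2. In Eef1a2 and Eif3f it begins 29 and 19 bases before the start, outside the annotated RNA. A match is a description of the letters near an annotated start, which may not be the start used in HL-1 cells.

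eIF3, the largest initiation complex, divided into a soluble majority and a few exceptions. Of its 14 genes, 7 were lower in the pellet (50%), 6 lay within 2-fold and 1 was higher (7.14%), with a median of -0.94. Among all tested protein-coding loci 10.6% were lower and 24% higher. The 7 lower genes were Eif3k (-1.39), Eif3g (-1.36), Eif3h (-1.35), Eif3i (-1.27), Eif3l (-1.09), Eif3c (-1.08) and Eif3b (-1.003). Eif3g, whose product binds RNA, had 135.8 soluble and 15.7 pellet FPKM, the highest soluble level of the complex. Eif3k had 114.3 and 12.9 FPKM. Eif3m (-0.87), Eif3e (-0.77), Eif3d (-0.73) and Eif3f (-0.34) were within 2-fold and negative, and each lay below the lowest spike-in deviation.

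Eif3a, which encodes the largest subunit, was balanced at -0.03 with 93.8 soluble and 27.3 pellet FPKM, the highest pellet level of the complex. Eif3j1 and Eif3j2 encode near-identical forms of the loosely attached subunit and stood far below the others in level. Eif3j1 had 2.58 soluble and 2.31 pellet FPKM and was higher in the pellet at 1.60. Eif3j2 had 3.28 and 1.03 FPKM, a log2 fold of 0.08. Fragments of such close copies can be divided wrongly between them, so both values are uncertain. Leaving out both, which was decided after their values were seen, 12 subunits remained between 49.2 and 135.8 soluble FPKM, with folds from -1.39 to -0.03.

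The factors that select the start codon were similar. Eif1, which encodes the factor that checks codon pairing, had 92.2 soluble and 15.9 pellet FPKM, a log2 fold of -0.78. Its paralog Eif1b had 38.7 and 5.30 FPKM and was lower in the pellet at -1.11. Eif1ax, the X-linked gene of eIF1A, had 96.3 and 14.0 FPKM and was lower at -1.02. Eif1a, a second gene of that factor on chromosome 18, stood apart from it at 0.27 with 34.7 and 12.4 FPKM. The copies share much sequence, so the split between Eif1ax and Eif1a is uncertain. Eif1ad, named for its eIF1A-like domain, had 18.8 and 3.43 FPKM, a log2 fold of -0.70.

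eIF2 and its exchange factor lay within 2-fold throughout. The 3 subunit genes had nearly equal folds: Eif2s1 (alpha, the phosphorylated subunit) had -0.61, Eif2s2 (beta) had -0.50 and Eif2s3x (gamma, X-linked) had -0.50. Their levels were also near each other, with 32.1, 45.2 and 45.4 soluble FPKM against 6.23, 9.46 and 9.51 pellet FPKM. Eif2s3y, the Y-linked gene of the gamma subunit, was not analysed here. Eif2a and Eif2d, which encode separate proteins able to bring initiator transfer RNA to the ribosome, had -0.25 (44.8 and 11.2 FPKM) and 0.14 (17.3 and 5.64 FPKM), both inside the spike-in range. Of the 5 eIF2B genes, Eif2b1 (-0.75), Eif2b2 (-0.74), Eif2b5 (-0.59, the catalytic subunit) and Eif2b4 (-0.42) were negative. Eif2b3 differed at 0.32, with 11.4 soluble and 4.23 pellet FPKM, the lowest levels of the complex.

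The eIF2 alpha kinases, which shut down initiation under stress, lay on the pellet side relative to the spike-ins. All 4 folds were positive (median 1.23) and 2 genes were higher. Of tested protein-coding loci 24% were higher, with a median of 0.26, and Eif2ak1 lay below that median. Each of the 4 kinase genes spans more than 30 kb. Protein-coding loci of 30 kb or more had a median of 0.67, with 35.1% higher. Eif2ak4 (GCN2, the sensor of amino acid starvation) had 3.29 soluble and 3.37 pellet FPKM, a log2 fold of 1.79. It is on chromosome 2, from 118388618 to 118475234 in mm10, and it was the only gene higher in the pellet with coordinates of its own in the table. Eif2ak2 (PKR, activated by double-stranded RNA) had 11.9 and 10.1 FPKM, a log2 fold of 1.52. Eif2ak3 (PERK, the kinase of the endoplasmic reticulum) had 9.62 and 5.47 FPKM, or 0.94, just within 2-fold. Eif2ak1 (HRI, regulated by heme) had 8.18 and 2.84 FPKM, or 0.23, inside the spike-in range. The kinase messages were scarce beside those of their substrate: the highest, Eif2ak2, had 11.9 soluble FPKM against 32.1 for Eif2s1. On the FPKM scale 0 of the 4 were higher and 1 was lower (median -0.52): Eif2ak4 stood at 0.03, while Eif2ak2 turned to -0.23, Eif2ak3 to -0.81 and Eif2ak1 to -1.53.

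**Figure D2:**
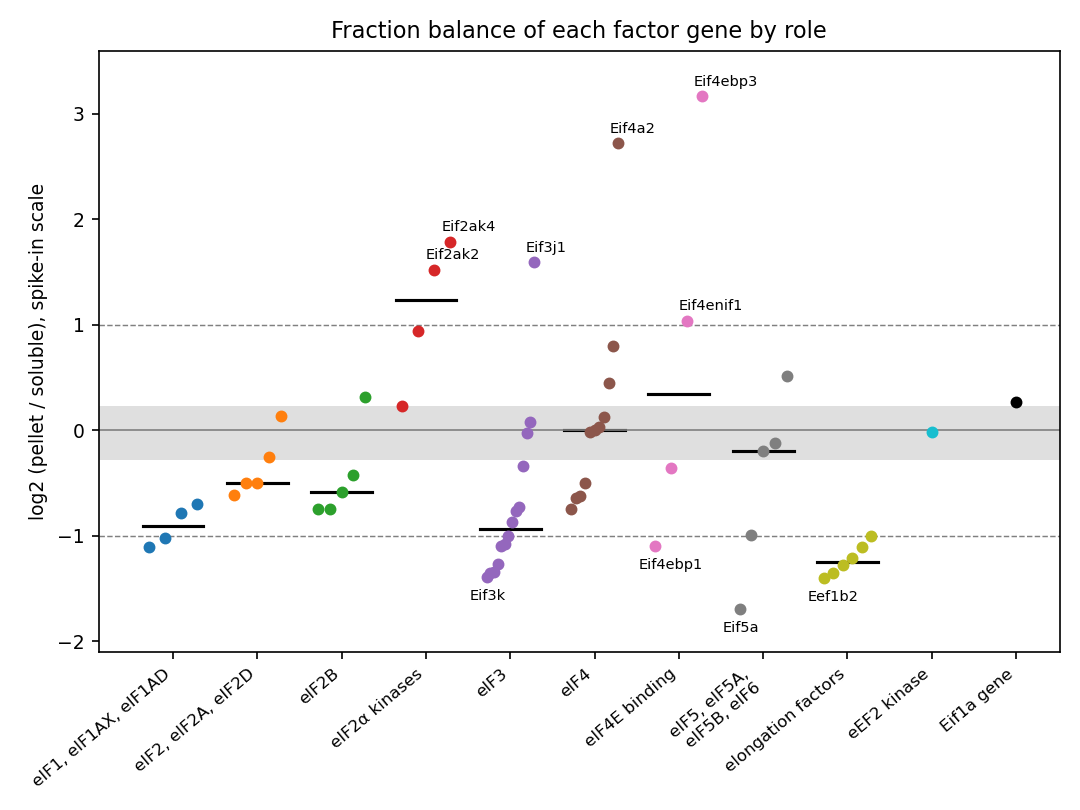
The log2 fold on the spike-in scale (y) of each factor gene by role, 1 point per gene, with a black bar for the median of each role with more than 1 gene. Dashed lines mark 2-fold and the grey band the range of the 47 spike-ins. The elongation factors lie between -1.41 and -0.999, and the 4 eIF2 alpha kinases all lie above 0.

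The cap binding and helicase genes were centred on balance, with Eif4a2 as the exception. Of 11, 10 lay within 2-fold and the median was -0.00. The 3 scaffold genes all had positive folds. Eif4g1 had 148.6 soluble and 45.1 pellet FPKM (0.03), Eif4g3 had 25.8 and 13.3 FPKM (0.80), and Eif4g2, whose product lacks the cap-binding partner site and serves cap-independent initiation, had 591.2 and 238.6 FPKM (0.45). The cap-binding genes did not separate: Eif4e had -0.00 (22.4 and 6.64 FPKM), Eif4e2 -0.01 (53.5 and 15.7 FPKM) and Eif4e3 0.12 (5.77 and 1.87 FPKM), and all 3 differ by no more than the spike-in range. The helicase cofactors Eif4b and Eif4h had -0.50 and -0.64. Eif4a3, the helicase that anchors the exon junction complex in the nucleus, had -0.74 (128.3 and 22.7 FPKM).

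The paralogs Eif4a1 and Eif4a2 encode RNA helicases of the cap complex, and their RNAs were distributed in opposite ways. Eif4a1 had 188.3 soluble and 36.3 pellet FPKM, a log2 fold of -0.62. Eif4a2 had 49.8 and 97.6 FPKM, a log2 fold of 2.72, so that 86.9% of its spike-in scaled signal was in the pellet against 39.4% for Eif4a1. Eif4a1 was thus 3.78 times higher in the soluble fraction and Eif4a2 2.69 times higher in the pellet. The difference between their log2 folds, 3.34 or 10.2-fold, does not depend on the scale. The whole range of the spike-ins, -0.28 to 0.23, is far narrower, but it is a technical yardstick with no replicate behind it.

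The starts of this pair of helicase genes are shown because their folds are opposite. Neither held CTCTT or CTTTT within 50 bases of the annotated start on the transcript strand, and each window of 30 bases (RefSeq, GRCm38.p6, 5′ to 3′) has the start as its base 16.
Eif4a1 (chr11:69672409-69672438, minus strand): acaaagtaacgtcacgtcgagttgcagagc
Eif4a2 (chr16:23107453-23107482, plus strand): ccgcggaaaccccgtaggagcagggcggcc

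The regulators of cap binding covered the widest range. Eif4ebp1, the repressor released from eIF4E by mTOR, had 106.6 soluble and 14.8 pellet FPKM and was lower in the pellet at -1.10. Eif4ebp2, its close relative, had 19.2 and 4.43 FPKM, a log2 fold of -0.36. Eif4ebp3 had 0.575 and 1.53 FPKM, the highest fold of all 60 genes at 3.17. Eif4enif1, whose product carries eIF4E into the nucleus, had 55.8 and 34.0 FPKM and was higher at 1.04. On the FPKM scale Eif4ebp3 alone of the 60 stayed 2-fold higher, at 1.41, Eif4a2 stood at 0.97 and Eif4enif1 turned to -0.71.

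Among the late initiation factors, Eif5a had the lowest fold of all 60 genes. It encodes the hypusine-containing factor that helps the ribosome through difficult peptide bonds, and had 352.4 soluble and 32.2 pellet FPKM, a log2 fold of -1.70 (chromosome 11, 69916714 to 69921958). Its paralog Eif5a2 had 15.5 and 4.23 FPKM and was balanced at -0.12. Eif6, which keeps the large ribosomal subunit free, had 203.5 and 30.2 FPKM and stood at the 2-fold limit with -0.998. Eif5b, the GTPase of subunit joining, had 30.7 and 7.94 FPKM, or -0.20. Eif5, the GTPase activator of eIF2, had 83.8 and 35.5 FPKM, or 0.51. Close to the limit, Eef2 and Eif6 fell just inside it and Eif3b just outside, so the count of 16 rests on small differences there.

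Many of these genes share their place in the table with another locus, in that both carry the same coordinates. This held for 24 of the 60 (43.5% of all tested loci), and for 5 of the 6 genes higher in the pellet against 2 of the 16 lower ones. The 36 genes with coordinates of their own had a median of -0.75 with 14 lower and 1 higher, and the 24 that share them had 0.01 with 2 lower and 5 higher. Sharing coordinates is not the same as overlapping in RefSeq. Ankhd1 shares them with Eif4ebp3 but lies apart from it, while Eif5a overlaps Gps2 and has coordinates of its own. The sources used here do not say how fragments were divided among loci with the same coordinates. The part of this sharing in the folds was not tested.

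Of the 6 protein-coding loci that share a place with the 5 higher genes, 4 had positive folds. The median over all tested protein-coding loci was also positive, at 0.26, so this count is no departure from loci in general. Eif4ebp3 is listed with Ankhd1, an abundant neighbour with 25.2 soluble and 22.7 pellet FPKM and a log2 fold of 1.61, although their RefSeq spans do not overlap. Eif3j1 is listed with Spg11 (5.57 and 3.11 FPKM, or 0.91), and the RefSeq spans of these genes overlap. Eif2ak2 is listed with Sult6b1, at 2.28 and only 1.28 soluble FPKM. Eif4enif1 is listed with Sfi1, at 3.11, but also with Drg1, at -0.24 and 84.3 soluble FPKM. Eif4a2 is listed with Rfc4, a clamp loader subunit gene whose span overlaps it, which had -0.83 (49.4 and 8.24 FPKM), on the opposite side from Eif4a2.

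Small nucleolar RNAs (snoRNAs, guides of ribosomal RNA modification) are often released from a spliced-out intron of a host gene, and RefSeq places at least 1 inside 9 of the factor genes. The table lists 13 snoRNA loci at the coordinates of 8 of these, all but Eef2. Of the 13, 12 were higher in the pellet (median log2 fold 3.93), against 31.9% of all tested loci. The share among the table's other snoRNA loci is not given here, so this is not shown to be particular to these 13. The hosts themselves had a median of 0.24, with Eif4a2 higher, Eef1b2 lower and 6 within 2-fold. This was near the median of all tested protein-coding loci (0.26), while the 52 genes listed with no such locus, Eef2 among them, had -0.63. All 8 hosts share coordinates because that is how they were counted, and the 24 genes that share them had a median of 0.01. Hosts of highly pellet-bound snoRNAs were found on both sides. Eif4a1 is listed with 3 snoRNAs, at 2.38, 4.25 and 4.99, the last (Gm25835) with 2903 soluble and 27319 pellet FPKM. Eif4a2 is listed with 4, at 0.02 (Snora81), 2.27, 3.24 and 4.44, the last (Gm26447) with 4910 and 31656 FPKM. Each of the helicase genes is listed with a snoRNA of high pellet level and a fold above 4. Eif4a2 also shares its place with Rfc4, whereas Eif4a1 is listed with snoRNAs only. What these loci add to the folds of the helicase genes was not tested.

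Eef1b2, at -1.41, is listed with Snora41 at 3.93. Eif4g1 (0.03) is listed with Snord66 at 4.40, Eif5 (0.51) with Snora28 at 4.31, Eif3a (-0.03) with Gm26158 at 3.70, Eif2ak3 (0.94) with Gm23346 at 5.03 and Eif4g2 (0.45) with Gm23262 at 1.33. Snora81 was thus the one snoRNA of the 13 that lay within 2-fold. FPKM of RNAs this short rests on a poorly determined effective length. Whether snoRNA fragments or unspliced host RNA enter the host values was not tested.

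**Figure D3:**
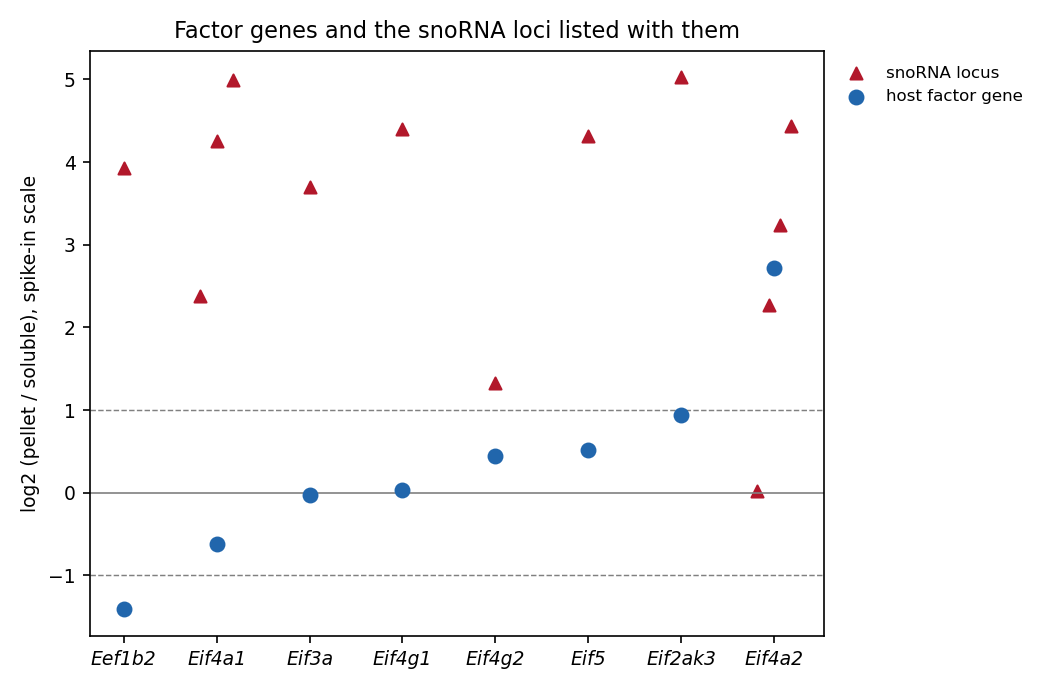
The log2 fold on the spike-in scale (y) of the 8 factor genes listed with snoRNA loci (circles, ordered by fold) and of the 13 snoRNA loci (triangles). Dashed lines mark 2-fold. The snoRNAs lie from 0.02 to 5.03, and the hosts from -1.41 (Eef1b2) to 2.72 (Eif4a2).

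Longer genes had higher folds and more abundant messages lower ones, among the factor genes and among protein-coding genes at large. Spearman's rho between log2 fold and RefSeq span was 0.42 over the 60 genes and 0.44 over 10726 protein-coding loci. Between log2 fold and mean FPKM it was -0.55 and -0.32. Soluble FPKM is part of that mean and also the divisor of the fold, so a negative rho may be partly built in. Between span and mean FPKM rho was -0.38 in the factor genes and -0.01 in protein-coding loci. Span and level were therefore related among the factor genes, and their relations to the fold were not separated. These are descriptions across genes of 1 pooled table, and genes are not replicates. The 15 factor genes of 30 kb or more had a median of 0.14, against 0.67 for 4600 protein-coding loci of that span. The 27 of 10 to 30 kb had -0.64 against 0.12, and the 18 under 10 kb had -0.75 against -0.44. Within each span class the factor genes had the lower median. Calls under 10 kb were nearly equal, with 27.8% of factor genes lower and 11.1% higher against 27.5% and 10.7% of protein-coding loci. From 10 to 30 kb the shares were 37.0% and 3.70% against 8.68% and 18.6%. At 30 kb or more they were 6.67% and 20% against 1.96% and 35.1%. Exceptions ran both ways: Eif3h, at 78899 bp, was lower in the pellet at -1.35, and Eif4a2, at 6665 bp, was higher at 2.72.

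**Figure D4:**
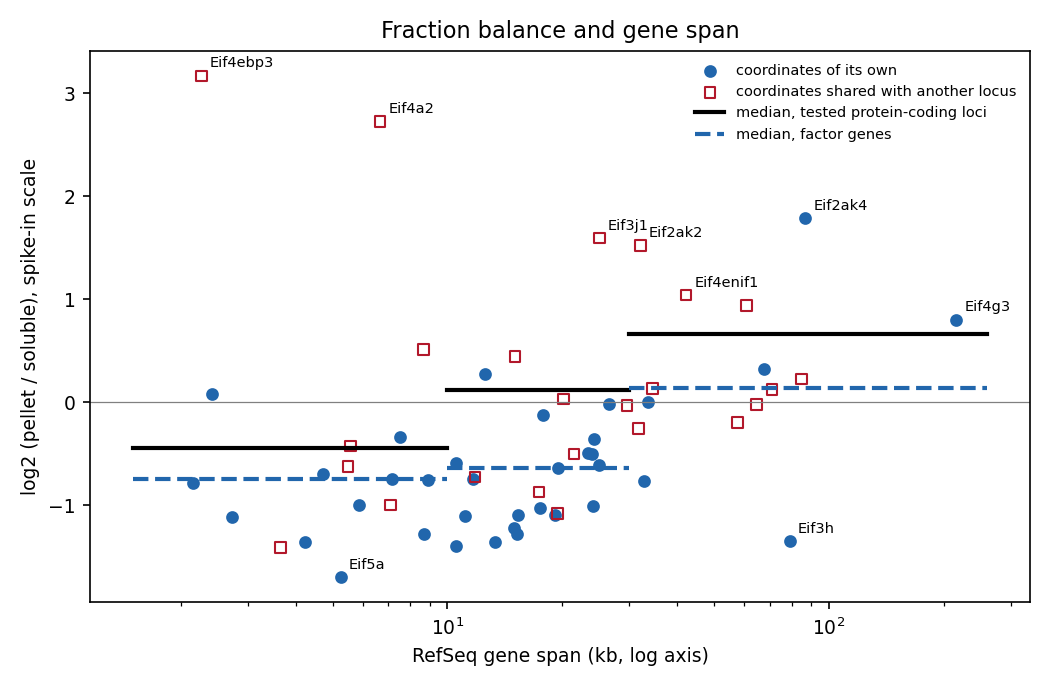
RefSeq gene span in kb (x, log axis) against the log2 fold on the spike-in scale (y) for the 60 factor genes. Filled circles have coordinates of their own in the table and open squares share them. Solid black bars are medians of all tested protein-coding loci in 3 span classes (-0.44, 0.12 and 0.67) and dashed blue bars those of the factor genes (-0.75, -0.64 and 0.14).

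Beside other gene groups of protein synthesis and turnover, the factor genes were less one-sided. Cytosolic ribosomal protein genes had a median of -1.52, and 71 of the 80 tested were lower while 0 were higher. For proteasome subunit genes the median was -1.03 and 21 of 38 were lower, again with 0 higher. Picked by symbol, that group also holds Psmc3ip (-0.47), and the ribosomal one Rps10-ps1 (-1.60), neither symbol naming a subunit. The mitochondrial ribosomal proteins came nearest, at -0.88, with 36 of 77 genes lower and 1 higher. The lower shares of the 3 groups were thus 88.75%, 55.3% and 46.8%. Among all tested protein-coding loci 10.6% were lower and 24% higher. The SD of the log2 fold across genes was 0.99 in the factor genes and 0.44, 0.45 and 0.55 in these 3 groups. Over all tested protein-coding loci it was 1.10, so the spread of the factor genes was not unusual. It was 0.70 in the 36 factor genes with coordinates of their own and 1.14 in the 24 that share them. The elongation factors alone, at -1.25, stood between the ribosomal protein and proteasome medians. With 1 value per fraction these differences could not be tested.

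**Figure D5:**
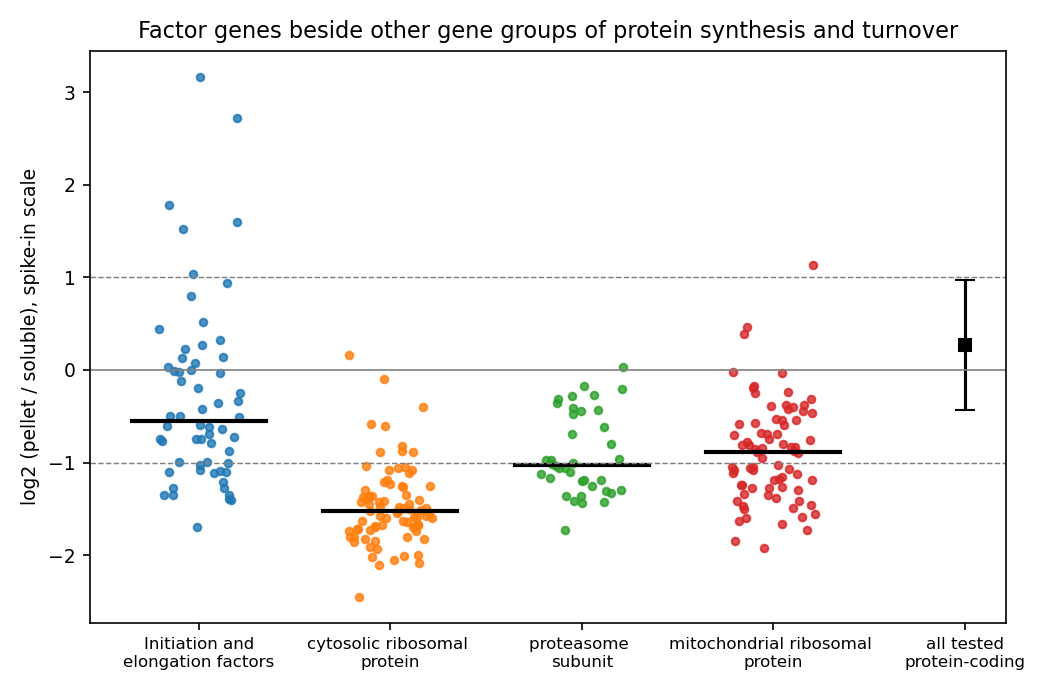
The log2 fold on the spike-in scale (y) of each tested gene in 4 groups, with black bars for the medians (-0.55, -1.52, -1.03 and -0.88), and the median and interquartile range of all tested protein-coding loci (square, 0.26). Dashed lines mark 2-fold. The factor genes extend from -1.70 to 3.17, the widest range of the 4 groups.

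Other genes of translation, from 5 lists of 73 genes with a row, all tested, lay near balance. The median over the 73 was -0.02, and 11 were higher (15.1%) and 4 lower (5.48%), beside 24% and 10.6% of all tested protein-coding loci and their median of 0.26. Among signalling and control genes the median was 0.24, and 5 of 21 were higher (23.8%) and 1 lower, a share and a median near those of protein-coding loci in general. Rictor, the defining subunit of mTOR complex 2, had the highest fold at 2.13 (5.83 soluble and 7.58 pellet FPKM), and Tpt1, a growth-related message, the lowest at -1.33. Cytosolic aminoacyl-tRNA synthetase genes, at a median of -0.24, had 1 of 20 lower and 0 higher, from Kars at -1.18 to Cars at 0.73. Of the termination, recycling and poly(A) binding genes, 2 of 14 were higher (14.3%) and 1 lower, from Denr at -1.32 to Mcts1 at 1.87, whose products form a heterodimer. The mitochondrial translation factors had 2 of 9 higher (22.2%, again near the general share) and 1 lower, from Tufm, the mitochondrial elongation factor, at -1.38 to Mtrf1l at 1.84. Genes of diphthamide and hypusine synthesis, which modify eEF2 and eIF5A, had the same share higher and 0 lower, from Dohh at -0.58 to Dph6 at 1.22.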

How the data were processed

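Per the labels' protocols, the 3 pellet and 3 soluble extracts were freed of ribosomal RNA and made into directional libraries. The submitters' processing notes name HISAT2, SAMtools, Cufflinks, bedtools, Cuffdiff and the mm10 genome, without versions or settings. The values deposited by the authors are 1 table with an FPKM value per fraction and locus, pooled over replicates per the file headers. It also holds a rescaled pellet signal, their total signal, the ratio of rescaled pellet to soluble as chromatin enrichment, and the log10 of total and ratio, all deposited by the authors. The rescaled column equals pellet FPKM times 3.37, the least-squares slope through 0 of soluble on pellet FPKM over 82 spike-ins.

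Of 30687 lines, 28742 identifiers were unique, and a line with a true RNA type was kept over one with the gene name in that column. Starts count from 0 in the table and 1 was added. Folds, medians and counts were computed with Python 3.11.15 and pandas 2.3.3 and were tested on simulated data. No pseudocount was added. The limma fit planned for per-library values was not run, because each fraction has 1 pooled value. Spans, starts and snoRNA genes came from RefSeq on GRCm38.p6, the build of mm10.

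The genes and lists were chosen with earlier results of these data known. Named are the 2 highest and 2 lowest genes of each role, all past 2-fold, the paralogs and snoRNA hosts, and the ends of each further list. The search for start motifs and the reading of shared coordinates by fold were added after values were seen. Eif1a was not in the role lists. Alternatives were the FPKM scale, a median spike-in ratio, a pseudocount of 0.5, no filter or a mean of 5 FPKM, calls at 1.5-fold and 3-fold, and leaving out genes with shared coordinates or snoRNAs.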

Additional observations from a re-analysis of the deposited data

How the results depend on the processing

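The balance depends most on the scale between fractions. On the FPKM scale the genes higher in the pellet went from 6 to 1, those lower from 16 to 52 and the median log2 fold from -0.55 to -2.30, and 14 of the 17 positive folds became negative, among them those of Eif2ak2 (-0.23), Eif3j1 (-0.16) and Eif4enif1 (-0.71), the 3 of the 6 higher genes that did so, while the order of the genes cannot change. Leaving out genes with shared coordinates left 1 higher gene and a median of -0.75. Testing only genes with a mean of at least 5 FPKM left 3 higher. Calls at 1.5-fold gave 30 lower and 8 higher genes. Shares over all loci at 1.5-fold, at a mean of 5 FPKM or without shared coordinates are not given here. The counts under these settings therefore show only how the calls moved, not a difference from loci in general. Calls at 3-fold gave 1 lower and 4 higher, so that the higher genes then outnumbered the lower ones. The counts and median moved by less than 1.5 times or by less than the spike-in SD with the median spike-in ratio, a pseudocount of 0.5 FPKM, no filter and snoRNA hosts left out. The pseudocount moved 6 single folds by more than that SD, most for Eif4ebp3, by -0.50. No paired analysis was possible because the table holds 1 pooled value per fraction, and for the same reason no replicate could be left out.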

Other observations

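Rows that the naming rule does not reach hold related genes. The lysine methyltransferase gene of eEF1A listed as N6amt2, now Eef1akmt1, had 14.4 soluble and 1.79 pellet FPKM, a log2 fold of -1.26, near the median of the elongation factors (-1.25). Fam86, now Eef2kmt, had 9.02 and 2.08 FPKM, or -0.36. Mettl21b, now Eef1akmt3, had a mean of 0.0693 FPKM and was not tested. The pseudogene Eif3s6-ps2 had 15.8 and 4.61 FPKM, a log2 fold of -0.02, while the other two pseudogenes, Eif5al3-ps and Eif4a-ps4, had means of 0.213 and 0.185 FPKM. These genes were named after their values were seen.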
